A study of Rattus norvegicus with 4 samples.

Results

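The genes described here are 7 of the 32883 Ensembl gene IDs measured in rat choroid plexus and kidney, namely CD74, CSF1R, B2M and the 4 genes with names starting with RT1 in the supplementary list of choroid plexus genes at hand. Their IDs are ENSRNOG00000018735 for CD74, ENSRNOG00000032844 for RT1-DA, ENSRNOG00000017123 for B2M, ENSRNOG00000038999 for RT1-A1, ENSRNOG00000000777 for RT1-S3, ENSRNOG00000031090 for RT1-CE7 and ENSRNOG00000018414 for CSF1R, the last taken from the list of receptor tyrosine kinases. The list of names at hand ended at 57.8 TPM in the male choroid plexus, so RT1 genes below this level were not analysed here. The genes were chosen by their TPM and expected counts in the sorted cells against both whole tissues, so these comparisons are descriptions and were not tested.

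All rats were 9-week-old Sprague Dawley animals with no treatment or genotype named. Choroid plexus of 5 males was pooled into 1 library and that of 5 females into another. Another library held cells from the choroid plexus of 10 males, sorted by fluorescence-activated cell sorting (FACS) with an antibody against the cotransporter NKCC1, and the last held manually collected proximal tubules from kidneys of 5 males, which per the study's methods were the males that gave the whole choroid plexus. Each group was 1 library of pooled animals, so no spread between animals can be given and no difference has a replicate check. Whole choroid plexus went into a preserving solution as tissue, whereas the sorted cells had first been digested with collagenase, triturated and stained, so an effect of sorting and one of this handling cannot be told apart. In such bulk libraries, more cells of a type and more RNA per cell cannot be told apart either.

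Expected counts, the estimated number of read pairs per gene, summed to between 23873318 and 28324976 per library, of which 4.32 to 5.34% lay on mitochondrially encoded genes in the choroid plexus libraries and 70.7% in the proximal tubule library. Levels are given in transcripts per 1000000 (TPM), which are per length and sum to the same total in each library. TTR, the transthyretin gene of the choroid plexus epithelium, took 39.0% of the TPM in the FACS library, 23.9% in the male and 28.6% in the female choroid plexus, which leaves less of the total for all other genes. The 12 epithelial markers were above 0 in all choroid plexus libraries. Most names at hand came from genes expressed in the male choroid plexus, so this follows in part from the choice. In the proximal tubule library 6 of these 12 were listed at 0, as were 33.5% of the 1998 listed choroid plexus genes. The tubule marker SLC34A1 had 67.7 TPM in that library after removal of the mitochondrially encoded genes.

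Nucleated cells display peptides from their own proteins on major histocompatibility complex (MHC) class I molecules, each a heavy chain bound to beta-2-microglobulin. Macrophages, dendritic cells and B cells also display peptides from ingested proteins on class II molecules, whose alpha and beta chains assemble with the invariant chain encoded by CD74. In the rat the MHC is called RT1. RT1-DA encodes a class II alpha chain, RT1-A1 a classical class I heavy chain, and RT1-S3 and RT1-CE7 further class I heavy chains. CSF1R is the receptor for the growth factor CSF1 and for IL-34, on which macrophages and microglia depend. The stroma and the apical surface of the choroid plexus hold macrophages, and dendritic cells are known there too.

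CD74 and RT1-DA, the class II pair, and CSF1R had their highest level in the sorted cells and their lowest choroid plexus level in the female tissue, while B2M and the class I heavy chains differed less between the 3 choroid plexus libraries. CD74 had 2556 TPM in the FACS library, 345 TPM in the male choroid plexus, 209 TPM in the female choroid plexus and 5.08 TPM in the proximal tubule. Sorted cells thus held 7.42 times the male level and 12.2 times the female level. CD74 stood at place 23 of all genes by TPM in the FACS library, against place 315 in the male and 490 in the female tissue.

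RT1-DA had 649.5 TPM in the FACS library, 104 TPM in the male choroid plexus, 61.6 TPM in the female choroid plexus and 32.9 TPM in the proximal tubule. This was 6.25 times the male and 10.5 times the female tissue level. The class II alpha chain and the invariant chain were therefore in the same order over the 3 choroid plexus libraries. Of the receptor gene CSF1R, the FACS library held 79.1 TPM, the male choroid plexus 16.5 TPM, the female choroid plexus 10.7 TPM and the proximal tubule 0.410 TPM. The sorted cells were at 4.79 times the male and 7.41 times the female level. In place by TPM, CSF1R went from 5664 in the male tissue to 1049 in the FACS library.

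B2M, the light chain of class I molecules, had 959 TPM in the FACS library, 740 TPM in the male choroid plexus, 637 TPM in the female choroid plexus and 926 TPM in the proximal tubule, so the sorted cells stood 1.3 times above the male tissue. RT1-A1 had 303 TPM in the FACS library, 263 TPM in male and 227 TPM in female choroid plexus. RT1-S3 had 115 TPM in the FACS library, 86.1 TPM in male and 70.6 TPM in female choroid plexus. These genes kept the order of the class II pair, with much smaller steps. RT1-CE7 did not, with 39.9 TPM in the FACS library, 65.0 TPM in male and 46.8 TPM in female choroid plexus. It was the only one of the 7 genes to have its lowest choroid plexus TPM in the sorted cells, although its order against the female tissue turned when the counts were scaled otherwise.

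**Figure D1:**
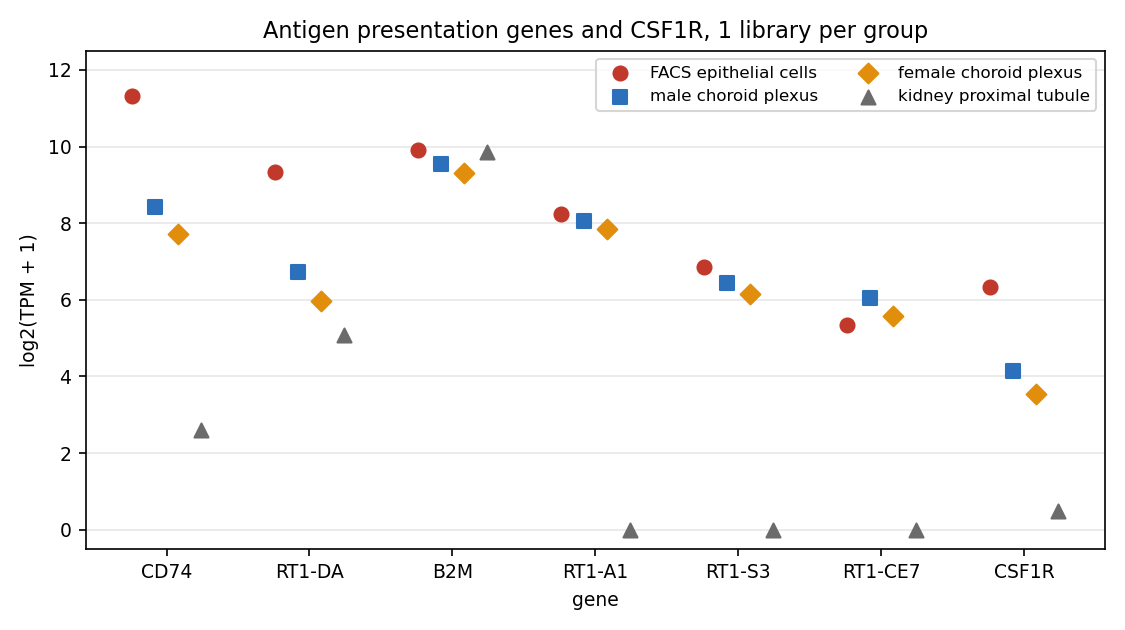
Level of each of the 7 genes as log2(TPM + 1) on the vertical axis, with 1 point per library (FACS epithelial cells, male and female choroid plexus, kidney proximal tubule) and no error bars since each group is 1 library. CD74, RT1-DA and CSF1R are far higher in the FACS library than in both whole tissues. With the mitochondrially encoded genes kept, as drawn, B2M lies between 637 and 959 TPM in all libraries. The class I heavy chains are at 0 in the tubule library.

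On the log2 scale with a pseudocount of 1 added to each TPM, which understates the change of low genes, the ratio of FACS library to male choroid plexus was 2.89 for CD74, 2.63 for RT1-DA and 2.19 for CSF1R. The ratio was 0.41 for RT1-S3, 0.37 for B2M, 0.20 for RT1-A1 and -0.69 for RT1-CE7. At least 2-fold higher in the FACS library were 3 of the 7 genes, against 4.61% of the 14024 genes that reached 0.5 TPM in either library, and 0 of the 7 were at least 2-fold lower, against 25.5%. Higher by any amount were 6 of the 7 genes, against 21.8%. As the genes were chosen for this contrast, nothing is read from these counts. The median log2 ratio was 0.41 over the 7 genes and -0.58 over all genes tested, so that relative to the median gene CD74 stood at 3.47, B2M at 0.96, RT1-A1 at 0.78 and RT1-CE7 at -0.11.

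Against the female choroid plexus, the log2 ratio was 3.61 for CD74, 3.38 for RT1-DA, 2.78 for CSF1R, 0.70 for RT1-S3, 0.59 for B2M, 0.41 for RT1-A1 and -0.22 for RT1-CE7. Again 3 of the 7 genes were at least 2-fold higher, against 5.61% of 13948 genes, and 6 of the 7 were higher by any amount, against 25.7%. CD74, RT1-DA and CSF1R were 2-fold higher than in both tissues, as were 4.17% of 14209 genes. The median was 0.70 over the 7 genes and -0.46 over all genes tested. Both comparisons share the FACS library, so the second is not a repeat of the first. In place of TPM, expected counts scaled by the trimmed mean of M values (TMM), which sets the median gene near 0, put 5 of the 7 genes at or above 2-fold in each comparison, B2M and RT1-S3 being added, against 10.2% of genes for the male and 10.1% for the female tissue. On that scale RT1-CE7 was at -0.15 against the male and, with the sign turned, at 0.17 against the female choroid plexus.

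**Figure D2:**
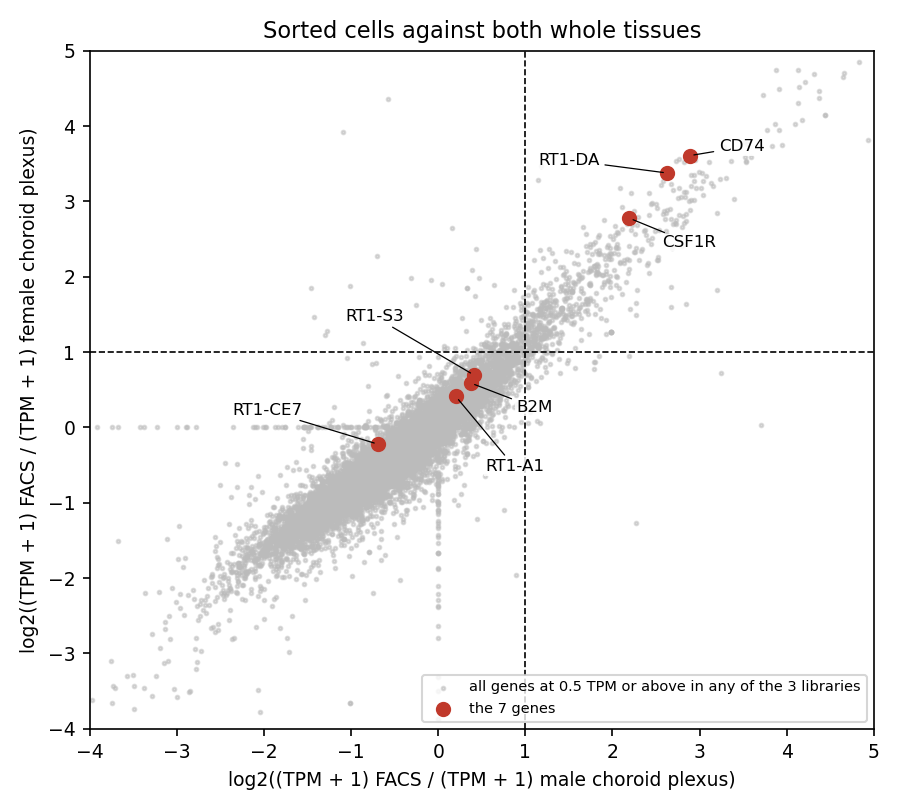
Log2 ratio of TPM + 1 in the FACS library to that in the male choroid plexus (horizontal axis) and to that in the female choroid plexus (vertical axis), with 1 grey point per gene at or above 0.5 TPM in any of the 3 libraries, the 7 genes in red and dashed lines at 2-fold. Of the 14209 genes, 48 lie outside the axes; CD74, RT1-DA and CSF1R lie beyond 2-fold on both axes and the other 4 of the 7 genes do not.

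Among the 2205 genes with a name and at least 5 TPM in a choroid plexus library, CD74 held place 5 by its ratio of FACS library to male tissue, RT1-DA place 9 and CSF1R place 10. RT1-S3 held place 158, B2M place 177, RT1-A1 place 261 and RT1-CE7 place 1186. The names at hand are mostly those of genes abundant in the male choroid plexus, so these places are within that set.

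As shares of all expected counts, CD74 took 0.237% in the FACS library (95% Wilson interval 0.235 to 0.239%), 0.0251% in the male choroid plexus (0.0245 to 0.0257%) and 0.0169% in the female choroid plexus (0.0164 to 0.0174%). CSF1R took 0.0279% in the FACS library (0.0272 to 0.0286%), 0.00461% in the male (0.00436 to 0.00486%) and 0.00328% in the female choroid plexus (0.00307 to 0.00351%). None of these intervals overlapped. They cover counting error only, which is small beside the differences, and say nothing of the spread between animals. The ratio of shares was larger than the ratio of TPM for both, for CD74 9.46 times (exact interval 9.23 to 9.69) and for CSF1R 6.06 times (5.71 to 6.43) over the male tissue.

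A ratio of TPM between genes of the same library does not depend on the library total. CD74 to RT1-DA was 3.94 in the FACS library, 3.31 in the male and 3.39 in the female choroid plexus, so these class II genes kept nearly the same proportion while their levels differed widely. CD74 to B2M was 2.67 in the FACS library, 0.466 in the male and 0.328 in the female choroid plexus. CD74 to CSF1R was 32.3 in the FACS library, 20.8 in the male and 19.5 in the female tissue. CD74 and RT1-DA together had 7.0 times the TPM of the 3 class I heavy chains in the sorted cells, 1.08 times in the male and 0.784 times in the female choroid plexus.

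The class I heavy chains together kept a steadier proportion to B2M than CD74 did, while RT1-A1 to RT1-CE7 varied more. The 3 heavy chains together had 0.477 of the TPM of B2M in the FACS library, 0.560 in the male and 0.542 in the female choroid plexus. Within them, RT1-A1 had 7.59 times the TPM of RT1-CE7 in the FACS library, against 4.05 times in the male and 4.87 times in the female tissue. RT1-A1 and RT1-CE7 were the only ones of the 7 whose expected counts were not whole numbers in the choroid plexus libraries, which happens where reads that fit several genes are divided between them, as for 6.28 to 8.07% of the genes with counts there. How much of RT1-CE7 and RT1-A1 belongs to each other or to further class I copies is thus uncertain. Summed, the 3 heavy chains had a log2 ratio of FACS library to tissue of 0.14 for the male and 0.41 for the female.

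**Figure D3:**
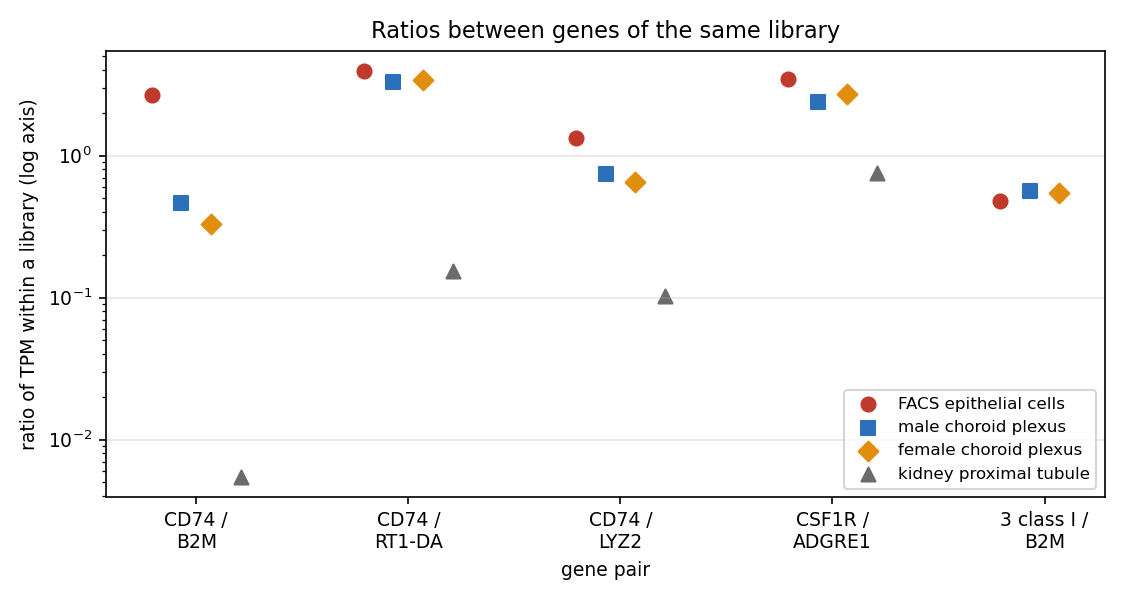
Ratio of the TPM of paired genes within each library, on a log axis, with 1 point per library. CD74 to B2M spans 0.328 to 2.67 over the choroid plexus libraries, while CD74 to RT1-DA stays between 3.31 and 3.94 and the 3 class I heavy chains to B2M between 0.477 and 0.560; no tubule point is drawn for the last since the heavy chains are listed at 0 there.

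Promoter sequences, from RefSeq on build GRCr8 and therefore on another build than the counts, were at hand for 6 of the 7 genes, RT1-CE7 being without one. Shown are the 200 bases before the annotated start of CD74 and RT1-DA, which differed most between the 3 choroid plexus libraries, and of B2M and RT1-A1, which differed less between these. Capitals mark CCAAT, the core TAGCAAC of the X box known from class II promoters, its longer form CTAGCAACNGATG as RT1-DA has it with 1 base left free, and AANNGAAA, the core bound by interferon regulatory factors, each on either strand.
CD74 (chr18:56527006-56527205, + strand): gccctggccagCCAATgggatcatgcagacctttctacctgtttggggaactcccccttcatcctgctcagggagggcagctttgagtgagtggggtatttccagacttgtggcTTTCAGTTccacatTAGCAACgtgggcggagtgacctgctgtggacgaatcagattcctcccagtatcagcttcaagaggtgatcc
RT1-DA (chr20:4515215-4515414, + strand): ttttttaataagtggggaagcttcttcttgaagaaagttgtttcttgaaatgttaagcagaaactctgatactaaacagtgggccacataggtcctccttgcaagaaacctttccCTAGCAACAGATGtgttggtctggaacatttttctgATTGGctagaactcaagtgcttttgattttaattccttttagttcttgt
B2M (chr3:129549130-129549329, + strand): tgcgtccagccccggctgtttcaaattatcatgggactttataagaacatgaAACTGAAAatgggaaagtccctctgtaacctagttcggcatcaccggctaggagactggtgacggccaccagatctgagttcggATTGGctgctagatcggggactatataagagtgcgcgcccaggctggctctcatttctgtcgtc
RT1-A1 (chr20:4907009-4907208, + strand): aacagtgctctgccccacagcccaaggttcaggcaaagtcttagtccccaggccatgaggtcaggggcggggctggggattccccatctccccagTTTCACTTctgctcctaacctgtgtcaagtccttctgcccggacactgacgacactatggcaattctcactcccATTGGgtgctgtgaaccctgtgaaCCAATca
The motifs were chosen after these sequences were read. Counted from the start, TAGCAAC lies at -84 to -78 in RT1-DA and at -72 to -66 in CD74. It was found in none of the other 4 promoters, and is in 2.42% of the 33469 promoters of that length. CTAGCAACNGATG, which holds TAGCAAC, was found in 4 of all promoters, those of RT1-DA, of the class II genes RT1-DB1 and RT1-DOB, and of PRR32. PRR32 had 183 TPM in the FACS library, 528 TPM in male and 536 TPM in female choroid plexus, an order unlike that of RT1-DA. RT1-DB1 and RT1-DOB were not among the names at hand, so their levels were not read. CCAAT was in all 6 promoters and in 29.2% of all, AANNGAAA in CD74, B2M, RT1-A1 and RT1-S3 and in 18.5% of all. GAGGAA, the core bound by the myeloid factor PU.1, was in those of CSF1R and CD74 and in 19.0% of all. A match of letters describes the sequence and does not show a site in use.

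The genes lie on 3 chromosomes in RefSeq, CD74 and CSF1R on chromosome 18, the RT1 genes on chromosome 20 and B2M on chromosome 3. Between the starts of CD74 and CSF1R lie those of 6 protein-coding genes, of which PDGFRB, the growth factor receptor of pericytes, was named. PDGFRB is the next protein-coding gene to CSF1R, and it had 23.1 TPM in the FACS library, 20.4 TPM in male and 17.4 TPM in female choroid plexus. CSF1R to PDGFRB was accordingly 3.42 in the FACS library, 0.810 in the male and 0.613 in the female tissue. Of the 10 named genes between RT1-S3 and RT1-A1 on chromosome 20 that are not RT1 genes, 0 were 2-fold higher in the FACS library than in the male tissue. The share of all genes was 4.61%. Log2 ratios of the 10 ran from -1.09 for RNF5 to 0.81 for SLC39A7.

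The female choroid plexus had less of every one of the 7 genes than the male, by TPM. The ratio itself did not choose the genes, but the RT1 genes had to reach 57.8 TPM in the male tissue to be named, which favours a lower female value, so the comparison is not free of the choice and is given as a description. The log2 ratio of female to male was -0.75 for RT1-DA, -0.72 for CD74, -0.59 for CSF1R, -0.47 for RT1-CE7, -0.28 for RT1-S3, -0.22 for B2M and -0.21 for RT1-A1. None of the 7 was 2-fold apart, against 1.4% of 13869 genes, and the median was -0.47 over the 7 genes and -0.16 over all genes tested. Only 1.81% of the genes tested had a lower ratio than RT1-DA and 2.05% a lower one than CD74, whereas B2M, with 37.7% below it, stood near the middle. A higher level in the female than in the male tissue was seen for 23.1% of all genes and for 0 of the 7. Among the 1998 genes that reached 57.8 TPM in the male tissue, the share was 26.6% and the median log2 ratio -0.11. On the TMM scale the median log2 ratio of all genes was -0.009, and RT1-A1 at -0.046 and B2M at -0.048 were close to level. As shares of counts, CD74 in the female tissue was 0.673 of the male value (exact interval 0.648 to 0.699), RT1-DA 0.648 (0.606 to 0.693), CSF1R 0.712 (0.652 to 0.778) and B2M 0.942 (0.926 to 0.958), again for counting error alone. With 1 pool per sex, sex and the difference between any such pools cannot be told apart.

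In the proximal tubule library only 7352952 counts lay outside mitochondrially encoded genes, and 33.5% of the 1998 listed choroid plexus genes were at 0 there, so a low level is hard to read. With the mitochondrially encoded genes removed and the rest rescaled, B2M had 3320 TPM, RT1-DA 118 TPM, CD74 18.2 TPM and CSF1R 1.47 TPM. At or above 0.5 TPM were therefore 4 of the 7 genes, against 40.5% of all genes that reached it in the male choroid plexus. RT1-A1, RT1-S3 and RT1-CE7 had 0 counts, which for counting error alone allows a share of up to 1.19e-05% of the counts each. CTSD, with 1895 TPM in the male choroid plexus, was at 0 counts in the tubule library too. The reason for such zeros was not tested. The class I light chain was thus abundant in a library in which none of the 3 heavy chains named was counted. CD74 to RT1-DA, between 3.31 and 3.94 in the choroid plexus libraries, was 0.154 there, from 173 counts of CD74 and 1104 counts of RT1-DA.

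Most named markers of myeloid cells, which are known to express CD74 and CSF1R, were also higher in the FACS library, 14 of 16 against the male and 16 of 16 against the female choroid plexus by TPM, as were 21.8% and 25.7% of all genes. Of the 29 markers listed, 16 had a name. Most names at hand came from genes expressed in the male choroid plexus, so levels above 0 there follow from the choice. In the proximal tubule 13 of the 16 were at 0. Of all genes that reached 0.5 TPM in the male choroid plexus, only 40.5% reached it in the tubule without mitochondrially encoded genes. The summed level of the 16 was 2064 TPM in the FACS library, 508 TPM in male and 345 TPM in female choroid plexus. LYZ2, a lysozyme of macrophages and neutrophils, made up most of it, with 1939 TPM in the FACS library, 468 TPM in male and 320 TPM in female tissue. Without LYZ2 the sums were 124 TPM, 39.97 TPM and 25.3 TPM in that order. The part of myeloid cells in the levels of the 7 genes was not tested.

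At least 2-fold higher in the FACS library than in the male tissue were 9 of the 16 myeloid markers, and 10 of 16 against the female tissue, where 4.61% and 5.61% of all genes were. The median log2 ratio was 1.14 against the male and 1.61 against the female choroid plexus. HCAR2, a receptor for hydroxybutyrate and niacin on myeloid cells, had 18.2 TPM in the FACS library, 0.650 TPM in male and 0.410 TPM in female tissue. ADGRE1, the macrophage marker F4/80, had 23.1 TPM in the FACS library, 6.95 TPM in male and 3.94 TPM in female tissue. The fractalkine receptor CX3CR1 differed less, with 11.0 TPM in the FACS library, 7.67 TPM in male and 5.10 TPM in female choroid plexus. The chemerin receptor CMKLR1, at 4.44 TPM in the FACS library and 4.55 TPM in male choroid plexus, was level between them. With TMM scaling, which put the median log2 ratio of all genes at -0.02, 16 of the 16 were higher than in the male tissue. Of these, 12 were 2-fold higher, against 10.2% of all genes. Between the tissues, all 16 had less TPM in the female, or all but 1 with TMM scaling. That scaling put the median log2 ratio of all genes between the tissues at -0.009. A higher female level by TPM was seen for 23.1% of all genes. The median log2 ratio of female to male was -0.43 over the 16, against -0.16 over all genes. Most names at hand came from genes expressed in the male choroid plexus, which favours a lower female value, so this is a description only.

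Set against these markers within each library, CSF1R to ADGRE1 was 3.43 in the FACS library, 2.38 in the male and 2.71 in the female choroid plexus. CD74 to LYZ2 was 1.32 in the FACS library, 0.736 in the male and 0.653 in the female tissue. Both ratios were highest in the sorted cells. Of the other myeloid markers, CX3CR1 and CMKLR1 differed less between FACS library and tissue than ADGRE1 and LYZ2, and HCAR2 differed more. Ratios to these are not reported here. The pairs shown were chosen after the values were seen, so nothing is read from their steadiness.

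Markers of other cells had smaller median ratios than the myeloid ones. Of the 4 named lymphocyte markers, 1 was 2-fold higher than in the male tissue, against 4.61% of all genes. This was GPR171 with 16.4 TPM in the FACS library, 1.07 TPM in male and 0.720 TPM in female choroid plexus. The 4 together had 20.0 TPM, 2.86 TPM and 1.88 TPM in that order. Their median log2 ratio was 0.70 against the male and 0.88 against the female tissue. None of the 9 named endothelial markers was 2-fold higher than in the male tissue, against 4.61% of all genes. By any amount 4 were higher, against 21.8% of all genes, and 5 were lower. The median log2 ratio of the 9 was -0.11, against -0.58 for all genes. Only 1 was 2-fold lower, the apelin receptor gene APLNR with 3.34 TPM in the FACS library and 7.91 TPM in male tissue. Against the female tissue 7 of the 9 were higher, against 25.7% of all genes, and 0 were 2-fold higher, against 5.61%. Their median there was 0.22, where all genes had -0.46. The sum of the 9 was 95.7 TPM in the FACS library, 91.9 TPM in male and 74.0 TPM in female tissue. Of the 6 named mural and fibroblast markers, 1 was 2-fold higher than in the male tissue, against 4.61% of all genes, and 1 was 2-fold lower, against 25.5%. The higher one was the proteoglycan gene DCN at 239 TPM, 102 TPM and 81.3 TPM in that order. The collagen receptor gene DDR2 was 2-fold lower at 2.47 TPM, 7.48 TPM and 5.03 TPM, and PDGFRA, a growth factor receptor of fibroblasts, had 49.2 TPM, 83.4 TPM and 66.3 TPM. Of the 12 epithelial markers, 0 were 2-fold higher and 5 were 2-fold lower than in the male tissue, against 4.61% and 25.5% of all genes. Their median log2 ratio was -0.72, against -0.58 for all genes, while TTR itself was higher at 0.71. Against the female tissue only 1 of the 12 was 2-fold lower, and the median was -0.48, where all genes had -0.46. By TMM, 2 of the 12 were 2-fold higher than in the male tissue, against 10.2% of all genes, and 0 were 2-fold lower. On the TMM scale the medians against the male tissue were 0.60 for the endothelial, 0.84 for the mural and fibroblast and -0.03 for the epithelial markers, beside 1.74 for the myeloid markers, so the order of the lists was kept while the sign turned for the endothelial ones. The mural and fibroblast markers summed to 1831 TPM in the FACS library, 1451 TPM in male and 1176 TPM in female tissue, most of it from SPARC, IGFBP7 and DCN.

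Of 9 class I heavy chain genes and 10 class II genes listed, 3 and 2 had a name, which are the ones described above. By TPM, none of the named genes for class I peptide loading or the proteasome was 2-fold apart between the FACS library and either tissue. Of all genes, 4.61% were at least 2-fold higher and 25.5% at least 2-fold lower than in the male tissue. Of the 10 genes listed for peptide loading, 6 had a name. In the FACS library 4 of these were higher than in the male tissue, against 21.8% of all genes, and 2 were lower. The median log2 ratio was 0.25 against the male and 0.49 against the female tissue, where all genes had -0.58 and -0.46. The chaperone CALR, which holds heavy chains in the loading complex, had 1155 TPM in the FACS library, 816 TPM in male and 621 TPM in female choroid plexus. PDIA3, the disulfide isomerase of that complex, had 794 TPM, 620 TPM and 517 TPM in that order, while CANX, the chaperone of newly made heavy chains, was lower in the FACS library at 206 TPM, against 287 TPM in male and 243 TPM in female tissue. Of the 9 genes listed for the catalytic proteasome subunits and PA28, which supply peptides to class I, only 4 had a name. These were PSMB5, PSMB6, PSMB7 and PSME1, and the rest of that list was not examined. All 4 had less TPM in the FACS library than in both tissues. Their medians were -0.61 and -0.66, beside -0.58 and -0.46 for all genes. TMM scaling put their median against the male tissue at 0.05 and that of the peptide-loading genes at 0.94, beside -0.02 for all genes. Among the proteasome genes, PSMB6 had 120 TPM in the FACS library, 201 TPM in male and 223 TPM in female choroid plexus. The genes of related class I-like molecules were split, FCGRT of the neonatal Fc receptor at 174 TPM, 113 TPM and 116 TPM and HFE of iron regulation at 110 TPM, 128.5 TPM and 111 TPM in the same order.

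For class II, 8 of the 10 proteases listed had a name. The median log2 ratio was 0.34 against the male and 0.43 against the female tissue. In the FACS library 6 and 7 of the 8 were higher, against 21.8% and 25.7% of all genes. CTSZ, the carboxypeptidase cathepsin Z, was the only one of the 8 that was 2-fold higher than in both tissues, against 4.17% of all genes. It had 161 TPM in the FACS library, 73.6 TPM in male and 75.5 TPM in female choroid plexus. Cathepsin D, CTSD, the highest of the list, had 2365 TPM in the FACS library, 1895 TPM in male and 1669 TPM in female tissue. With TMM scaling the median against the male tissue was 1.02, and 5 of the 8 in place of 1 were 2-fold higher, against 10.2% of all genes. By TPM, none of the 8 reached the ratio of CD74, whose chain such proteases degrade. The cathepsins are lysosomal enzymes of many cell types, the epithelium included.

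Interferon induces genes of both classes. Of the 14 interferon-induced genes listed 4 had a name. These 4 were higher in the FACS library than in both tissues, where 21.8% of all genes were higher than in the male and 25.7% than in the female. Medians of the 4 were 0.77 and 1.22 by TPM and 1.39 and 1.69 with TMM scaling. BST2, the antiviral tetherin, had 503 TPM in the FACS library, 263 TPM in male and 216 TPM in female choroid plexus. IFI27 had 150.2 TPM in the FACS library, 125 TPM in male and 54.4 TPM in female tissue, and was the only one of them 2-fold apart between the sexes, at a log2 ratio of -1.18. Of the CSF1R ligands and the growth factor receptors of myeloid cells, CSF1 and IL34 were not among the names at hand. The TAM receptor gene AXL had 23.0 TPM in the FACS library, 12.47 TPM in male and 9.58 TPM in female choroid plexus. Its relative TYRO3 differed less, with 53.6 TPM, 48.2 TPM and 43.9 TPM in that order. Of the 5 receptors 0 were 2-fold higher than in the male tissue, against 4.61% of all genes.

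**Figure D4:**
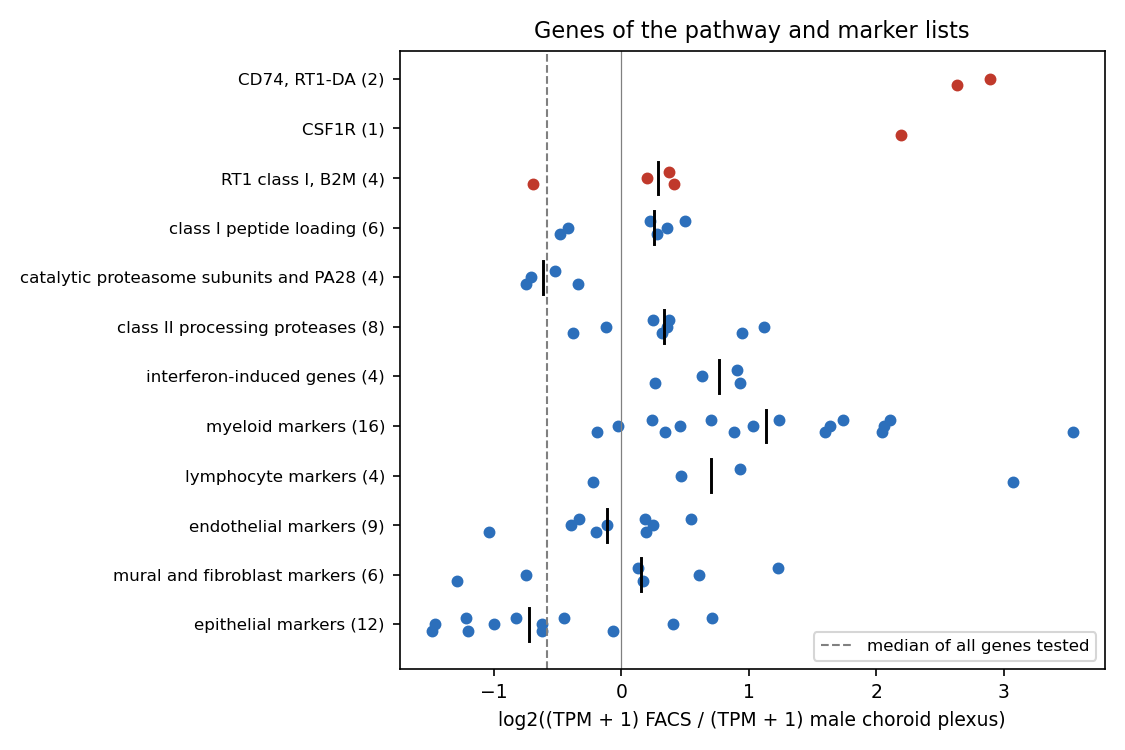
Log2 ratio of TPM + 1 in the FACS library to that in the male choroid plexus (horizontal axis), with 1 point per named gene of each list, the number of genes in parentheses, black bars for list medians and a dashed line for the median of all genes tested at -0.58. CD74, RT1-DA and CSF1R lie above all but 1 of the 16 myeloid markers, whereas B2M, RT1-A1 and RT1-S3 lie within the range of the peptide-loading genes and RT1-CE7 lies at -0.69.

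Genes that respond to dissociation of tissue, a list put together after values had been seen, differed in both directions. Of 30 listed 10 had a name, with a median log2 ratio of -0.40 against the male tissue, where all genes had -0.58. Their sum was 3016 TPM in the FACS library, 3674 TPM in male and 3366 TPM in female choroid plexus. Of the 10, 3 were 2-fold higher than in both tissues, against 4.17% of all genes. Among the 3 was the AP-1 gene JUND with 419 TPM in the FACS library, 119 TPM in male and 134 TPM in female tissue. The part of the digestion in the levels of the 7 genes was not tested.

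By the pattern over the 4 libraries, taken as the Euclidean distance between log2(TPM + 1) values centred for each gene, the named gene nearest to CSF1R was LYZ2 at a distance of 0.42. Also among the nearest 5 were SLC11A1, the metal transporter of macrophage phagosomes, at 1.0, LOC100364435 at 1.06 and ABCA7 at 1.13. Nearest to CD74 was the apolipoprotein gene APOE at 0.94, with 1522 TPM in the FACS library, 236 TPM in the male, 290.2 TPM in the female and 3.52 TPM in the proximal tubule, and then GDF15 at 1.3, JUND at 1.65, VIM at 1.66 and RHOB at 1.67. APOE differed from CD74 between the sexes, being higher in the female pool. RT1-DA held only place 1043 of 2205 from CD74, the widest gap between them being in the proximal tubule. Among the 5 nearest to B2M were RBX1 at 0.28, OSTC at 0.29, the ribosomal protein gene RPS18 at 0.30 and SLC5A2 at 0.31. All of these were nearly level over the 4 libraries while the mitochondrially encoded genes were kept, as in all these distances. With those genes removed, the proximal tubule had 3320 TPM of B2M and 21.6 TPM of SLC5A2, so the level pattern depends on this choice. The distances are over 4 libraries with 1 per group and turn largely on the proximal tubule, in which many of the genes were at 0.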

How the data were processed

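RNA of 4 pools of rat tissue or cells was sequenced, with 1 library per group. STAR 2.7.2a was used by the authors for alignment, with Rnor_6.0 and Ensembl release 103 as reference, followed by RSEM 1.3.3. For each of 32883 IDs the authors deposited an expected count, which can be fractional, and a TPM, which sums to 1000000 per library. Effective lengths were read too, and FPKM values were left aside. Strandedness is not given in the sources used here, so overlapping and antisense genes, like near-identical RT1 copies, may have exchanged reads. The assembly is of Brown Norway origin and the rats were Sprague Dawley, and an effect of this on the RT1 genes was not tested.

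Groups were taken from the labels. Log2 ratios of TPM + 1 were computed over genes at or above 0.5 TPM in either library, the cut-off of the study. With 1 library per group there is no test and no p-value, and a 2-fold difference names a size only. Shares of expected counts, rounded to whole numbers, carry 95% Wilson intervals, ratios of shares exact intervals given the summed count of both libraries, and a count of 0 a limit of 3 counts. These cover counting error only, and depth per library limits them as given in the report. Where stated, mitochondrially encoded genes were taken out of the proximal tubule TPM, which were then rescaled, and elsewhere they were kept. Names were paired with 2452 IDs by the supplementary lists, of which the main one was at hand in part. Promoters, chromosomes and neighbours come from RefSeq (GRCr8) by symbol, 6 of 7 genes having a promoter entry and 0 IDs being paired directly.

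Python 3.11.15 with numpy 2.4.6, pandas 2.3.3, scipy 1.17.1 and matplotlib 3.10.9 was used. edgeR 4.0.16 (TMM) and DESeq2 1.42.0 (size factors) in R 4.3.3 served only to rescale rounded expected counts. The steps were tested on simulated data. The alternatives were these scalings, pseudocounts of 0.1 and 0.5, removal of the 10 highest or of the mitochondrially encoded genes, the class I heavy chains summed, no filter on low values, and for the tubule 0.1 TPM, 5 TPM or a count of 10 as the limit.

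The 7 genes and the lists of pathway and marker genes were chosen with earlier results of these data known. Named are the 7 genes, those of each list with the highest TPM in the male choroid plexus, and the 5 nearest in pattern to CD74, CSF1R and B2M. Not all of these are printed, and some are not reported here. The rescaling of the lists was added after seeing the data. The dissociation genes, gene pairs, motifs, tubule marker, neighbours, and the genes PRR32, HCAR2, CTSZ, APLNR, DDR2, SLC39A7 and RNF5 were chosen after values or sequences had been seen.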

Additional observations from a re-analysis of the deposited data

How the results depend on the processing

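No paired analysis was possible because each group is 1 library and no replicate numbers exist, and for the same reason no replicate could be left out. With TMM scaling and with DESeq2 size factors, 5 in place of 3 of the 7 genes were at least 2-fold higher in the FACS library than in the male choroid plexus, and likewise 5 in place of 3 against the female choroid plexus. B2M and RT1-S3 were the genes added. The median log2 ratio against the male tissue went from 0.41 to 1.09 with TMM, 1.08 with DESeq2 size factors, 0.82 without the 10 highest genes and 2.19 with the class I heavy chains summed. Against the female tissue it went from 0.70 to 1.18 with either scaling, 1.01 without the 10 highest genes and 2.78 with the heavy chains summed. Between female and male it went from -0.47 to -0.32 with TMM, -0.34 with DESeq2 size factors and -0.59 with the heavy chains summed. The summed heavy chains leave fewer genes in the median, and the scalings moved the median of all genes too, from -0.58 to -0.02 for TMM against the male, so that the 7 genes stood 0.99 above it by TPM and 1.11 above it by TMM. RT1-CE7 turned from -0.22 to 0.17 against the female tissue with TMM and with DESeq2 size factors, and to 0.082 without the 10 highest genes. The other 37 recomputed counts and medians stayed within 1.5 times for counts and within the counting interval for medians. Some of these could not change. The filter on low values does not touch the 7 genes, and summing the heavy chains, none of which was 2-fold apart, cannot alter the counts of 2-fold genes. Each of the 7 genes stayed lower in the female than in the male tissue under every alternative that kept it as a single gene. By TMM, however, RT1-A1 at -0.046, B2M at -0.048 and RT1-S3 at -0.086 were close to level, where all genes had a median of -0.009. CD74 ran from 2.85 to 3.60 and CSF1R from 2.16 to 2.94 against the male tissue over all alternatives. In the proximal tubule the genes outside the mitochondrial ones shared few counts, and the part of depth in the genes at 0 there was not tested.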
